A study of Mus musculus with 8 samples.

Results

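This comparison is the RPRD1B knockdown within library set 2 of a study in NIH3T3 cells, an established line of mouse embryonic fibroblasts. It takes in 4 of the 8 libraries of the study: replicates 3 and 4 of cells carrying short hairpin RNA (shRNA) against RPRD1B, and replicates 3 and 4 of cells carrying a scrambled shRNA. They were chosen because one deposited count table holds these 4 libraries together. Replicates 1 and 2 of each group form set 1 in a table of their own, and share no library with set 2. Both groups were grown in calf serum and kept under puromycin for at least 1 week, and per the labels the knockdown was checked by Western blot before sequencing. The comparison is therefore between 2 selected populations, one per hairpin type, and unselected cells are not part of it. The labels do not say how many hairpins were used, whether the cells were clones or pools, what sets the library sets apart, or whether replicates were separate cultures. All p-values thus rest on spread among libraries, which may be technical.

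RPRD1B, also called CREPT, binds RNA polymerase II at the C-terminal domain (CTD) of Polr2a. The CTD is a tail of repeated heptapeptides whose phosphorylation changes as the polymerase moves from initiation to elongation and termination. RPRD1B and its relatives RPRD1A and RPRD2 read these marks and bring in enzymes that remove them, and in human cancer cells RPRD1B has been linked to Wnt signalling and to transcription of the cyclin D1 gene.

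The libraries of set 2 held 12311442 to 23223139 counts, the deepest being knockdown replicate 4 and the shallowest knockdown replicate 3. Of these counts, 5.63% and 7.69% in the scrambled libraries and 8.02% and 9.98% in the knockdown libraries fell on Rn45s, the ribosomal RNA precursor, a difference that gave no call for this gene (adjusted p = 0.641). At these depths 3 counts, the most that a count of 0 allows, correspond to 0.129 to 0.244 CPM (counts scaled to a common library total), a floor that covers counting error only. Across genes, log2 CPM correlated at 0.993 and 0.994 within the groups and at 0.991 to 0.992 between them, where genes are not independent replicates. The fibroblast markers were present: all 12 were tested, and they summed to 17513 and 17394 CPM in the scrambled and 16784 and 16732 CPM in the knockdown libraries.

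Rprd1b messenger RNA was lower in cells with the hairpin and was still detected. The gene, on chromosome 2 at 158028475 to 158078207 (mm10), stood at 39.8 and 41.2 CPM in the scrambled libraries and at 22.6 and 22.8 CPM in the knockdown libraries. The groups lay well apart. The level fell by 43.9%, a log2 fold change of -0.83 ± 0.10 (SE) with an adjusted p of 6.82e-15 in the quasi-likelihood test of edgeR. The call held whichever library was left out. An exact two-sided permutation test over the 4 libraries gave p = 0.333, and 6 assignments can give no smaller value. The gene overlaps Tti1, and the library kit is not stated to keep the strand, so reads of the overlap cannot be told apart. The paralog Rprd1a stood at 17.4 and 20.6 CPM in scrambled and 18.4 and 19.8 CPM in knockdown cells, and its change of 0.02 ± 0.12 was not called (adjusted p = 0.956). Rprd2 had a change of -0.11 ± 0.08 (adjusted p = 0.573).

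In the knockdown cells of set 2 the genes of the secreted proteins Fam19a1, Dcn and Slit2 rose, and Grpr, Galc, Itgb3, the imprinted noncoding RNAs Rian and Meg3 and 3 of 4 tested genes of chromosome Y fell. Genes of other secreted and surface proteins were called in both directions. The secreted protein gene Prl2c2 rose by 0.76 ± 0.06, and the surface protein genes Fxyd5 and Cd34 by 0.88 ± 0.10 and 0.44 ± 0.06, on the log2 scale. Mgp, an inhibitor of matrix calcification, changed by -0.55 ± 0.04, the surface glycoprotein gene Cd24a by -0.58 ± 0.05 and the adhesion gene Ncam1 by -0.57 ± 0.05 on the log2 scale, whichever library was left out. Of 11779 tested genes, those whose counts averaged 10 or more, 611 (5.19%) passed an adjusted p of 0.05 in edgeR. Of these, 300 (2.55%) were higher and 311 (2.64%) lower in the knockdown cells, and such genes are termed called below. Without adjustment, 1944 genes (16.5%) had a p under 0.05. Called changes were mostly modest. Their absolute log2 fold change had a median of 0.29, and 210 of the higher and 245 of the lower genes changed by less than 0.5. A change of at least 1 was reached by 43 higher and 13 lower genes. Both knockdown libraries lay on one side of both scrambled libraries in 298 of the higher and 311 of the lower called genes, against 5331 (45.3%) of all tested genes.

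The number of calls moved with gene level and with each library. Among the 2945 tested genes with the lowest counts 2.55% were called, and no change under 0.60 was among them, while among the 2945 with the highest counts 9.71% were called and changes down to 0.11 passed. Leaving out single libraries gave 304 calls without scrambled replicate 3, 355 without scrambled replicate 4, 354 without knockdown replicate 3 and 273 without knockdown replicate 4. A total of 133 genes were called whichever library was left out. DESeq2 called 177 genes, 87 higher and 90 lower, each of them also called in edgeR. The authors' deposited table for set 2 lists 238 genes with a q-value under 0.05, 117 higher and 121 lower, and all 238 were also called in edgeR.

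**Figure D1:**
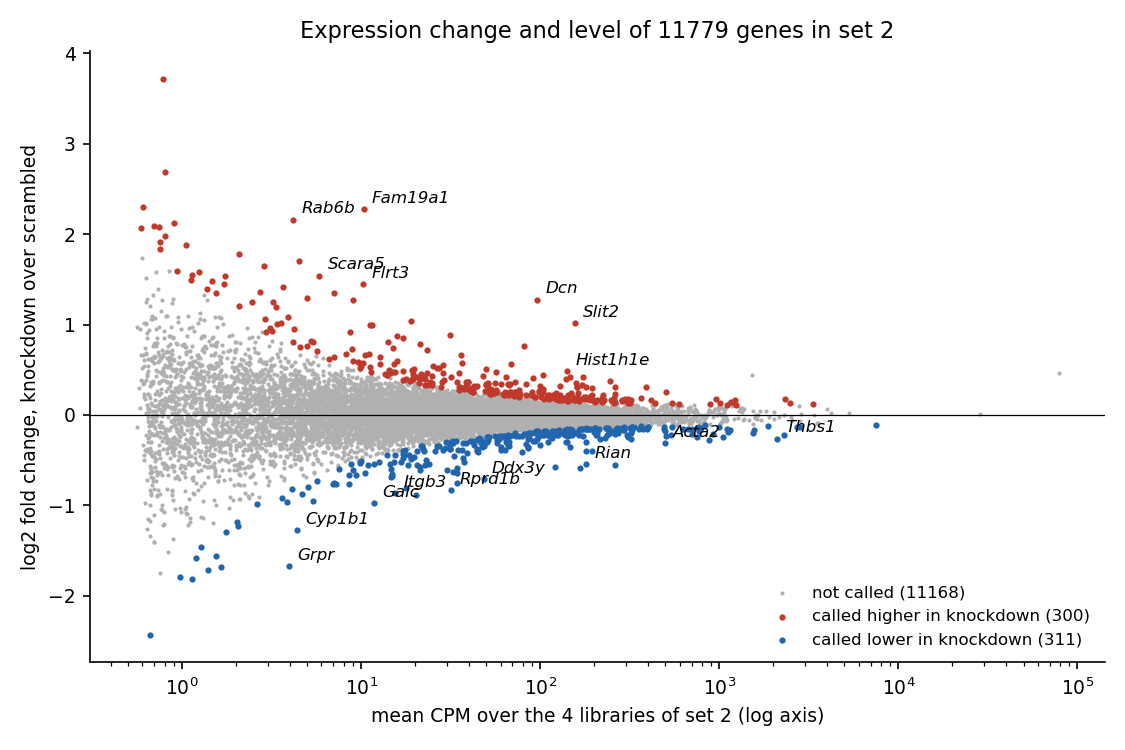
Change in knockdown cells as log2 fold over scrambled cells (vertical axis) against the mean CPM over the 4 libraries of set 2 (horizontal log axis), one point per tested gene. The 300 genes called higher are red, the 311 called lower are blue and genes not called are grey, and the smallest called changes are those of the most abundant genes.

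Fam19a1 gave the largest rise among called genes that averaged 50 or more counts. This gene, on chromosome 6 at 96113154 to 96657204, codes for a small secreted protein of the TAFA family that is best known from brain. Its level was 3.09 and 4.12 CPM in the scrambled and 16.0 and 18.1 CPM in the knockdown libraries. The rise of 2.27 ± 0.18 on the log2 scale (adjusted p = 7.23e-33) is 4.84-fold. Rab6b, a small GTPase of Golgi traffic that is abundant in neurons (chromosome 9, 103111667 to 103185276), went from 1.31 and 1.79 CPM to 6.90 and 6.76 CPM. Its change was 2.16 ± 0.28 (adjusted p = 3.59e-12). Both genes were low in scrambled cells, and groups that do not overlap were a condition for naming them.

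Dcn and Slit2 rose from higher levels and gave the smallest p-values of the comparison. Dcn codes for decorin, a small proteoglycan that binds collagen fibrils and holds growth factors in the matrix (chromosome 10, 97479500 to 97518163). It stood at 59.4 and 52.5 CPM in the scrambled and 133 and 139 CPM in the knockdown libraries, a change of 1.28 ± 0.06 (adjusted p = 2.55e-90). Slit2, a secreted guidance protein that signals through Robo receptors (chromosome 5, 47981291 to 48307735), stood at 101 and 105 against 214 and 201 CPM, a change of 1.01 ± 0.05 (adjusted p = 1.08e-81). The libraries of a group differed little from each other in both genes, and both calls held whichever library was left out.

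Several of the other large rises were of signalling and adhesion proteins. Flrt3, a transmembrane adhesion protein that binds Unc5 receptors, went from 5.82 and 5.20 to 15 and 15.2 CPM, a log2 change of 1.45 ± 0.17. It lies within Macrod2, from whose reads it cannot be told apart without strand. Sema3c, a secreted semaphorin, rose by 1.29 ± 0.24, and Ngef, an exchange factor for small GTPases downstream of Eph receptors, by 1.04 ± 0.12, from 13.3 and 11.2 to 26.6 and 24.5 CPM. Negr1, an adhesion protein anchored to the outer membrane, rose by 1.27 ± 0.18. Pde1a, a phosphodiesterase activated by calcium and calmodulin, rose by 1.70 ± 0.26, and Ppef1, a phosphatase with calcium-binding motifs, by 1.42 ± 0.28. Among these 6 genes Flrt3 had the smallest adjusted p at 1.34e-14 and Ppef1 the largest at 5.45e-05.

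Nov, which codes for the matricellular protein CCN3, stood at 1.6 and 1.16 CPM in scrambled and 3.82 and 4.87 CPM in knockdown cells, a rise of 1.65 ± 0.32. Scara5, a scavenger receptor that takes up ferritin, rose by 1.54 ± 0.23, from 3.21 and 2.72 to 9.09 and 8.39 CPM. Casp4, an inflammatory caspase that responds to bacterial lipopolysaccharide, rose by 1.35 ± 0.21, from 3.98 and 3.88 to 11.2 and 9.14 CPM. The 3 calls held whichever library was left out. Cytip, a binding partner of cytohesins, rose by 1.25 ± 0.30, and without scrambled replicate 4 it was not called (adjusted p = 0.0645). Slc6a15, a carrier of neutral amino acids, rose by 1.19 ± 0.29, and was not called without scrambled replicate 3 (0.245) or knockdown replicate 4 (0.0573).

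Some of these rising genes are best known from neurons, and 4 of the 9 neural markers were tested. Map2, a microtubule protein of dendrites, went from 10.7 and 9.86 to 16.9 and 19 CPM (0.80 ± 0.14, adjusted p = 1.63e-06). Snap25, a vesicle fusion protein, went from 11.0 and 13.6 to 20.6 and 16.0 CPM (0.56 ± 0.14, adjusted p = 0.00219), a call lost without scrambled replicate 3 (0.206) or knockdown replicate 3 (0.201). Syn1 and Tubb3 were not called, and 0 counts of Stmn2 and Olig2 were seen in any of the 4 libraries. The summed level of the 9 markers was 54.2 and 57.9 CPM in scrambled and 75.1 and 72.5 CPM in knockdown cells, a small part of the fibroblast sum. Their part in the rises was not tested. In bulk RNA, more cells of a type and more RNA per cell cannot be told apart, and likewise for falls. Markers of epithelium and endothelium summed to at most 0.560 and 0.650 CPM in any library, adipocyte markers to 0.853 to 1.21 CPM, macrophage markers to 9.21 to 11.8 CPM and skeletal muscle markers to 7.87 to 12.1 CPM. Of these lists 3 macrophage markers and 1 muscle marker were tested, and 0 were called in edgeR or DESeq2, with 1 higher and 1 lower macrophage marker at an unadjusted p under 0.05.

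**Figure D2:**
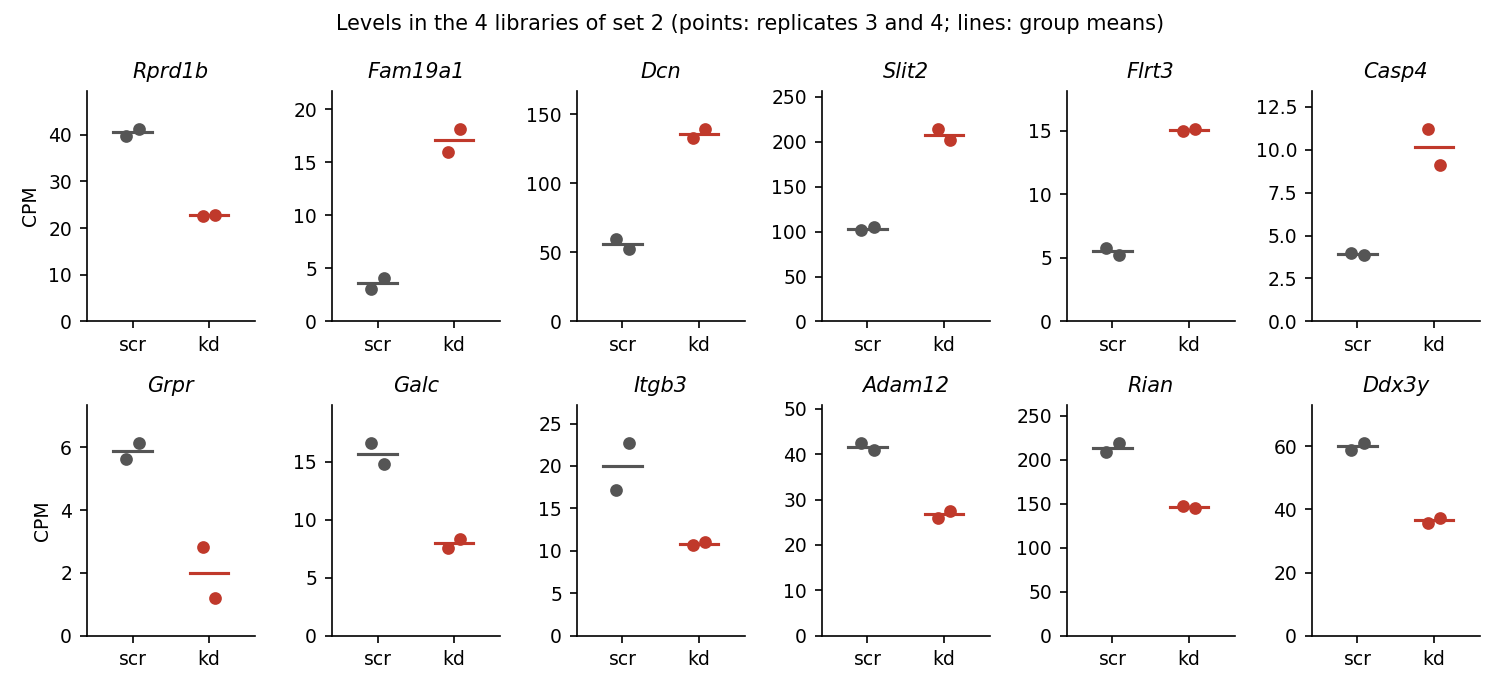
Levels in CPM (vertical axes, each from 0) of 12 genes in the 4 libraries of set 2, with scrambled libraries in grey, knockdown libraries in red, and lines at the group means of 2 libraries. In each gene the groups do not overlap, which the choice of most of these genes required and which holds for 45.3% of all tested genes. Rprd1b lies at 39.8 and 41.2 CPM against 22.6 and 22.8 CPM. The largest spread within a group relative to its level is that of Grpr in knockdown cells.

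The falls were smaller in size than the rises. Grpr, the receptor for gastrin-releasing peptide (chromosome X, 163513904 to 163549736), led them, from 5.64 and 6.13 CPM to 2.84 and 1.19 CPM. Its change of -1.67 ± 0.28 (adjusted p = 4.66e-07) lost its call without knockdown replicate 4, the lower of the knockdown libraries (0.0544). Cyp1b1, a cytochrome P450 and a target of the aryl hydrocarbon receptor, changed by -1.27 ± 0.25, from 6.89 and 5.44 to 2.52 and 2.59 CPM, a call lost without scrambled replicate 3 (0.0636). Galc, the lysosomal enzyme that breaks down galactosylceramide (chromosome 12, 98202287 to 98259459), went from 16.6 and 14.8 to 7.55 and 8.39 CPM. Its change of -0.97 ± 0.15 (adjusted p = 5.73e-08) held whichever library was left out.

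Itgb3, the beta 3 subunit of the vitronectin receptor (chromosome 11, 104608000 to 104670476), stood at 17.2 and 22.7 CPM in scrambled and 10.6 and 11.1 CPM in knockdown cells. It changed by -0.86 ± 0.14 (adjusted p = 5.51e-08). Pi15, a secreted protein of the peptidase inhibitor family, changed by -0.80 ± 0.13, from 21.4 and 23.8 to 13.7 and 12.3 CPM. Neither call depended on a single library. Integrin genes, taken up after their values were seen, went both ways. Itga6, the alpha 6 subunit of laminin receptors, rose by 0.42 ± 0.05 (adjusted p = 9.08e-14), whichever library was left out. Itga3 changed by -0.39 ± 0.09 and lost its call without scrambled replicate 4 (0.195), and Itgb5 changed by -0.29 ± 0.09 and lost its call whichever library was left out (0.0631 to 0.401). Of the remaining large falls, apart from Rprd1b and the Y-linked gene Eif2s3y described below, 7 calls were lost when some single library was left out. These were Hlf, a transcription factor with a circadian rhythm (-0.97 ± 0.27, up to 0.268), Myzap, a junction protein of heart muscle (-0.95 ± 0.22, up to 0.429), and Spry1, an inhibitor of receptor tyrosine kinase signalling (-0.91 ± 0.28, up to 0.705). They also included Islr, a leucine-rich repeat protein (-0.88 ± 0.24, up to 0.154), Ccdc57 (-0.81 ± 0.26, up to 0.315), Ankrd6, a scaffold of Wnt and planar polarity signalling (-0.80 ± 0.23, up to 0.520), and Mfap5, a protein of elastic microfibrils (-0.77 ± 0.18, up to 0.141). The values in brackets are log2 changes with their SE and the highest adjusted p with 1 library left out. Without scrambled replicate 3 the calls of Myzap, Spry1, Islr, Ccdc57 and Mfap5 were lost.

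Matrix genes went both ways. Of 26 tested glycoproteins, proteoglycans and crosslinking enzymes 2 rose and 9 fell, with a median log2 change of -0.09 against -0.00 over all tested genes. Over all tested genes 2.55% were called higher and 2.64% lower, the shares against which this and the later lists are to be read. Among the 2945 genes with the highest counts 9.71% were called in either direction, and list members were not matched on counts. Beside the rise of Dcn, the crosslinking enzyme gene Lox stood at 2495 and 2454 CPM in scrambled and 2055 and 2187 CPM in knockdown cells (-0.22 ± 0.04, adjusted p = 1.00e-07). Thbs1, the adhesive glycoprotein thrombospondin, went from 2374 and 2225 to 1843 and 1996 CPM (-0.26 ± 0.04, adjusted p = 1.75e-10). Fbln5, which helps to assemble elastic fibres, changed by -0.30 ± 0.05 (adjusted p = 9.74e-08). The number that fell ran from 6 without scrambled replicate 3 to 8 without knockdown replicate 4.

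Of 20 tested collagen genes 2 rose and 2 fell, with a median of -0.09. Col3a1, a fibrillar collagen of loose connective tissue, went from 115 and 127 to 161 and 157 CPM (0.40 ± 0.05, adjusted p = 1.21e-11), and Col11a1, a minor fibrillar chain, from 23.7 and 22.8 to 32.4 and 35.5 CPM (0.55 ± 0.10, adjusted p = 4.68e-06). Col6a1 and Col6a2, chains of the microfibrillar collagen VI, each changed by -0.20 ± 0.04. The call of Col6a1 was lost without scrambled replicate 4 (0.0638) or knockdown replicate 3 (0.0848).

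Matrix proteases and their inhibitors gave falls and no rises. Of 20 tested members 6 (30%) fell and 0 rose in edgeR, against 2.64% lower and 2.55% higher of all tested genes. At an adjusted p under 0.05 DESeq2 called 3 lower and 0 higher. At an unadjusted p under 0.05 in edgeR 8 fell and 0 rose. Adam12, a membrane metalloprotease, fell from 42.4 and 41.0 to 25.9 and 27.6 CPM (-0.64 ± 0.09, adjusted p = 2.30e-09). Its call held without each library, while those of Adamts5 (-0.21 ± 0.05) and Timp3 (-0.14 ± 0.04) did not. The count was 2 without scrambled replicate 3 and 3 without knockdown replicate 3, and the list's median was -0.06.

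Genes of the contractile apparatus and of the SRF and YAP pathways, which respond to actin and to cell tension, also gave falls. Of 22 tested members 5 (22.7%) fell and 0 rose in edgeR, against 2.64% lower and 2.55% higher of all tested genes. At an adjusted p under 0.05 DESeq2 called 2 lower and 0 higher. At an unadjusted p under 0.05 in edgeR 10 fell and 1 rose, and the list median was -0.07. Acta2, smooth muscle actin, fell from 541 and 557 to 438 and 445 CPM (-0.31 ± 0.04, adjusted p = 1.76e-12), whichever library was left out. Tagln, an actin-binding protein, changed by -0.47 ± 0.13, from 19.9 and 20 to 13.1 and 15.3 CPM, and was not called without either scrambled library (0.0799 and 0.0569) or knockdown replicate 3 (0.163). Cald1 (-0.17 ± 0.04) and Actn1 (-0.16 ± 0.05), which bind and crosslink actin, lost their calls without scrambled replicate 3 (0.199 and 0.593). Without that library Acta2 was the 1 member called, with 3 members without scrambled replicate 4, 2 without knockdown replicate 3 and 3 without knockdown replicate 4.

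Cytokine genes gave rises and no falls. Of 22 tested NF-kB targets, cytokines and chemokines 3 (13.6%) rose and 0 fell in edgeR and in DESeq2. In edgeR 2.55% of all tested genes were called higher and 2.64% lower. At an unadjusted p under 0.05 in edgeR 6 rose and 0 fell, with a list median of 0.10. Lif, a cytokine of the interleukin 6 family, stood at 17.6 and 17.6 CPM in scrambled and 27.5 and 30.1 CPM in knockdown cells (0.72 ± 0.11, adjusted p = 1.92e-08). The monocyte chemokine Ccl7 went from 30.6 and 28.5 to 44.7 and 43.4 CPM (0.57 ± 0.09, adjusted p = 5.21e-08), and its neighbour Ccl2 from 246 and 223 to 294 and 289 CPM (0.31 ± 0.04, adjusted p = 4.96e-10). The 3 calls held without each library. Among 18 tested genes of the interferon response 1 fell, Rtp4, from 1.19 and 1.86 to 0.406 and 0.439 CPM (-1.79 ± 0.53, adjusted p = 0.0206), a call lost without scrambled replicate 4, knockdown replicate 3 or knockdown replicate 4 (0.113 to 0.283).

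Growth factor genes were called in both directions, 3 higher and 4 lower of 30 tested. Kitl, the ligand of the Kit receptor, rose from 113 and 116 to 147 and 140 CPM (0.33 ± 0.05) and the receptor gene Pdgfra from 138 and 136 to 161 and 163 CPM (0.24 ± 0.05). Fgfr2, a fibroblast growth factor receptor, fell from 158 and 147 to 128 and 120 CPM (-0.30 ± 0.05, adjusted p = 1.24e-06). Hbegf, a ligand of the EGF receptor, changed by -0.22 ± 0.05, a call lost without knockdown replicate 3 (0.149). With 1 library left out, 2 to 3 growth factor genes were lower, 2 of them without scrambled replicate 4, knockdown replicate 3 or knockdown replicate 4. Among 29 TGF-beta and BMP genes 3 rose and 5 fell in edgeR, against 1 and 0 in DESeq2. Ltbp4, which tethers latent TGF-beta to the matrix, rose from 5.70 and 6.21 to 13.3 and 9.57 CPM (0.91 ± 0.18, adjusted p = 5.87e-05). Id3 (0.26 ± 0.07) and Inhba (-0.22 ± 0.05) were called and lost their calls without scrambled replicate 4 (0.0934 and 0.068) or knockdown replicate 4 (0.261 and 0.243). The number of lower genes of this list was 2 without scrambled replicate 3, 3 without scrambled replicate 4, 2 without knockdown replicate 3 and 1 without knockdown replicate 4.

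Among 21 tested Wnt genes, the pathway to which RPRD1B has been linked, 1 rose and 4 fell. The Wnt antagonist Sfrp1 rose from 18.2 and 18.0 to 25.3 and 24.4 CPM (0.45 ± 0.11, adjusted p = 0.00331). The ligand Wnt5a (-0.44 ± 0.12), the secreted modulator Dkk3 (-0.40 ± 0.11) and the receptor Fzd1 (-0.38 ± 0.10) fell, at adjusted p-values of 0.00494 to 0.0110. Without scrambled replicate 3 these 3 calls were lost, and no member of the list was called lower. DESeq2 called 0 of the list in either direction, against 2 higher and 5 lower at an unadjusted p under 0.05 in edgeR. Wnt genes outside the list were not counted. The cyclin D1 gene Ccnd1 was the 1 member called of 31 G1/S genes, at 425 and 407 against 380 and 373 CPM (-0.14 ± 0.04, adjusted p = 0.0141). Its call was lost without scrambled replicate 3 (0.370), knockdown replicate 3 (0.0638) or knockdown replicate 4 (0.207). Of 28 G2/M genes Ube2c rose (0.18 ± 0.05), and Top2a (-0.15 ± 0.04) and Hmmr (-0.16 ± 0.05) fell. Each was lost when some single library was left out, knockdown replicate 4 being common to the 3 genes (0.188 to 0.355).

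The transcription machinery itself gave few calls. Of the 14 RPRD relatives and CTD phosphatases 0 were called in edgeR or DESeq2, and 0 higher and 3 lower had an unadjusted p under 0.05 in edgeR. Ssu72, a CTD phosphatase of the cleavage machinery, had the smallest p of the list (-0.19 ± 0.09, adjusted p = 0.267). Of 13 subunits of RNA polymerase II 0 were called by either tool, with 0 higher and 2 lower at an unadjusted p under 0.05 and a median of 0.04. Among 30 CTD kinases and elongation factors Supt5, a subunit of the pausing and elongation factor DSIF, rose from 89.3 and 90.7 to 104 and 111 CPM (0.26 ± 0.06, adjusted p = 0.000661). Mnat1, a subunit of the CTD kinase of TFIIH, fell from 65.4 and 62.9 to 55.9 and 51.4 CPM (-0.27 ± 0.07), and Ssrp1, a subunit of the histone chaperone FACT, changed by -0.16 ± 0.05. The calls of all 3 were lost without knockdown replicate 4 (0.171, 0.358 and 0.172). Mnat1 overlaps Six4 and Trmt5.

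Of 32 tested homologous recombination and Fanconi genes, which repair broken and crosslinked DNA, 0 were called by edgeR or DESeq2. At an unadjusted p under 0.05 there were 5 lower and 0 higher. Yet 27 of the 32 lay below 0, and in 19 both knockdown libraries lay below both scrambled libraries, against 23% of all tested genes, while 0 lay above, against 22.3%. The median was -0.15. In set 1, 24 members lay below 0 with a median of -0.10. Of 24 tested p53 targets 2 rose, among them Cdkn1a, the cell cycle inhibitor p21 (0.17 ± 0.04), and 2 fell, among them Ei24, from 50.9 and 51.2 to 38.4 and 38.3 CPM (-0.41 ± 0.08, adjusted p = 5.87e-05). The call of Cdkn1a was lost without scrambled replicate 3 (0.0781).

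Iron genes were called in both directions, with 3 of 15 tested members higher and 1 lower. Beside Scara5, the ferritin chains Fth1 and Ftl1 rose by 0.18 ± 0.04 and 0.14 ± 0.04, from 2168 and 2189 to 2446 and 2483 CPM for Fth1. Both calls were lost without scrambled replicate 3 (0.0868 and 0.621), and that of Ftl1 also without knockdown replicate 4 (0.146). Both genes have near-identical pseudogenes, so their counts are uncertain. Slc40a1, the iron exporter ferroportin, fell from 18.1 and 18.3 to 10.1 and 12.2 CPM (-0.69 ± 0.14, adjusted p = 5.97e-05). Other abundant genes moved little. Vim, the intermediate filament protein of fibroblasts, rose by 0.12 ± 0.04 and Fn1, fibronectin, changed by -0.11 ± 0.04, and each call was lost when any single library was left out. Ctsl, a lysosomal protease, rose by 0.17 ± 0.04 and lost its call without scrambled replicate 4 (0.0721). Bgn, the proteoglycan biglycan, changed by -0.14 ± 0.04, lost without scrambled replicate 3 (0.506) or knockdown replicate 3 (0.211), and Ncl, nucleolin, by -0.13 ± 0.04, lost without either scrambled library or knockdown replicate 4 (0.221 to 0.357).

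Of the 12 fibroblast markers 3 rose, namely Col3a1, Pdgfra and Vim, and 3 fell, namely Fn1, the surface protein gene Thy1 (-0.15 ± 0.04) and the transcription factor gene Prrx1 (-0.16 ± 0.04). DESeq2 called 3 higher and 0 lower, and fewer were called lower in edgeR whichever library was left out. The remaining lists gave at most 5 calls each. Over all tested genes 2.55% were called higher and 2.64% lower. Lists such as ribosomal proteins (4.35% higher) and lysosomal genes (6.67% higher, 3.33% lower) lay within a few genes of these shares. Of 26 immediate early genes 3 rose and 2 fell, among them Zfp36, which destabilises cytokine messages (0.31 ± 0.05, adjusted p = 1.59e-07), and Ier5 (-0.25 ± 0.04). Of 21 NRF2 targets 2 rose, among them Gsta4, a glutathione transferase, from 147 and 139 to 178 and 175 CPM (0.30 ± 0.05), and 1 fell. Of 26 genes of the unfolded protein and integrated stress responses 4 were called lower and 0 higher in edgeR, and 2 and 0 in DESeq2. At an unadjusted p under 0.05 in edgeR 7 were lower and 2 higher. The chaperone Canx (-0.19 ± 0.04) held without each library, and Xbp1, Pdia6 and Psat1 did not. Of 26 glycolysis and hypoxia genes 3 fell, namely P4ha2, Pfkm and Ldha, each lost when some single library was left out. Of 46 ribosomal proteins 2 rose, and of 29 nuclear-encoded genes of oxidative phosphorylation 2 rose, with changes of 0.13 to 0.20 that were also lost when some single library was left out. Of 30 axon guidance genes 4 rose and 1 fell, and beside Slit2 and Sema3c the rises were of the receptors Nrp2 (0.20 ± 0.05) and Plxna1 (0.16 ± 0.04), lost without 2 libraries each. Of 30 lysosomal genes 2 rose and 1, Galc, fell, of 22 cholesterol genes 1 rose and of 17 clock genes 1, Hlf, fell. Of 9 Hedgehog genes 0 were called by edgeR or DESeq2, with 2 higher and 2 lower at an unadjusted p under 0.05. The list medians were -0.05 for the stress responses, -0.06 for glycolysis, 0.04 for oxidative phosphorylation and -0.00 for ribosomal proteins.

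Imprinted and Y-linked genes were among the falls with the smallest p. Rian, a long noncoding RNA of the maternal copy of the Dlk1-Meg3 region (chromosome 12, 109603945 to 109661716), stood at 209 and 219 CPM in scrambled and 148 and 145 CPM in knockdown cells (-0.54 ± 0.05, adjusted p = 5.14e-26). Its neighbour Meg3, also a maternal noncoding RNA, went from 217 and 224 to 181 and 155 CPM (-0.40 ± 0.05, adjusted p = 2.61e-14). Both overlap Rtl1, which is transcribed from the other strand and was also called lower (-0.52 ± 0.13, edgeR adjusted p = 0.00324). Without strand the reads of the overlaps cannot be told apart. Grb10, an adaptor that restrains growth factor signalling, fell from 951 and 963 to 784 and 790 CPM (-0.28 ± 0.04, adjusted p = 3.92e-11), and Peg3, a zinc finger protein of the paternal copy, rose from 52.3 and 54.2 to 68.0 and 66.8 CPM (0.34 ± 0.07). The falls of Rian, Meg3 and Grb10 held whichever library was left out. In all, 2 of 15 tested genes of the imprinted list rose and 3 fell, against 2.55% and 2.64% of all tested genes. Rtl1 is not among those 3 falls. Of the 4 tested genes of chromosome Y 3 fell: Ddx3y, a helicase, from 58.9 and 61.0 to 35.6 and 37.3 CPM (-0.71 ± 0.08), Eif2s3y, a translation initiation subunit, by a change of -0.89 ± 0.12, and Kdm5d, a histone demethylase, by one of -0.65 ± 0.14. Uty, the remaining gene, had the same sign and was not called. All 4 had both knockdown libraries below both scrambled libraries, as had 23% of all tested genes. The median of the 4 was -0.68, close to the -0.66 of set 1.

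Called genes were spread unevenly over the chromosomes, where 2.55% of all tested genes were called higher and 2.64% lower. On chromosome 12, which carries Galc, Rian, Meg3, Fbln5, Actn1 and Mnat1, 1 gene was higher and 23 were lower of 417 tested, with a median log2 change of -0.07. Chromosome 11 had 21 higher and 55 lower genes of 943, and at 100 to 120 Mb it went the other way, with 15 higher and 1 lower of 223 and a median of 0.05. Chromosome 1 had 11 higher and 32 lower genes. The balance was the other way on chromosome 2, with 39 higher and 12 lower, on chromosome 7, with 33 and 18, and on chromosome 15, with 21 and 3. In stretches of 20 Mb with at least 20 tested genes, the median ran from -0.13 on chromosome 11 at 40 to 60 Mb, where 0 of 120 genes were called higher and 15 lower, to 0.11 on chromosome 10 at 0 to 20 Mb and chromosome 7 at 20 to 40 Mb, where 15 of 171 were called higher and 1 lower. The first of these holds Canx, P4ha2 and Hmmr, and the last holds Supt5, Ltbp4, Zfp36 and Rps19, so the smallest of their called changes, such as Hmmr at -0.16 and Rps19 at 0.15, were near the median of their stretch. Of 135 stretches 6 had a median of at least 0.1 in size and 87 had the same sign in set 1, whose libraries are different ones. Across stretches the medians of the sets correlated at 0.679, where stretches of a chromosome are not independent. The part of copy number in these medians was not tested, and the tests of genes were not adjusted for them.

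**Figure D3:**
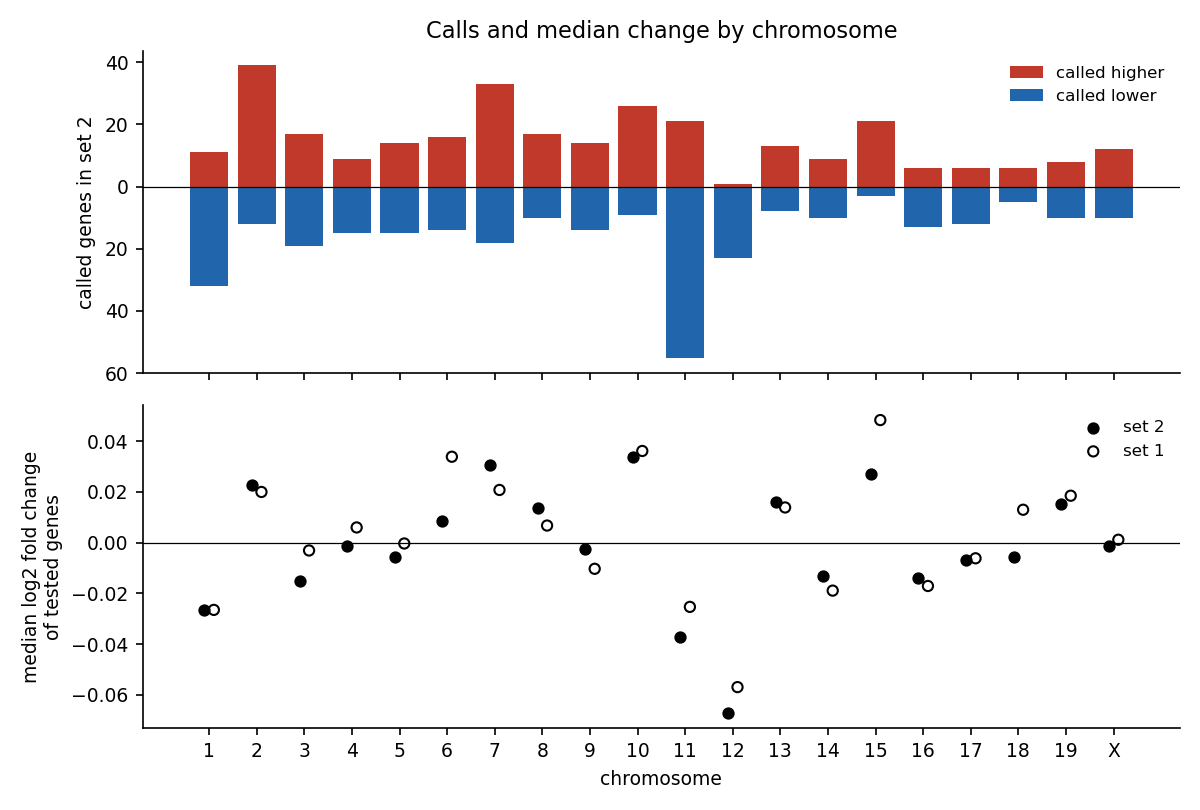
Number of genes called in set 2 on each chromosome (upper panel, higher in red above 0, lower in blue below 0) and median log2 fold change of its tested genes (lower panel, filled circles for set 2 and open circles for set 1). Chromosomes 11 and 12 carry mostly lower calls, with medians of -0.04 and -0.07 in set 2 and -0.03 and -0.06 in set 1; chromosome Y, with 4 tested genes, is not drawn.

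Set 1, with different libraries of the same groups, gives the same comparison a further reading. There 563 of 11585 genes (4.86%) were called, 311 higher (2.68%) and 252 lower (2.18%). Of 11427 genes tested in both sets, 5.25% were called in set 2 and 4.91% in set 1, and 202 were called in both with the same sign, 111 higher and 91 lower. They make up 33.7% of the 600 calls of set 2 and 36.0% of the 561 of set 1, and a further 5 genes were called in both with opposite signs. Of the 600 calls of set 2, 510 (85.0%) had the same sign in set 1, against 58.9% of all genes tested in both. Among the 393 that set 1 did not call, 308 had the same sign. Genes called higher in set 1 had a median change of 0.30 there and 0.17 in set 2, and genes called lower -0.32 and -0.15, where the first of each pair is raised by the selection. With DESeq2 the number of calls shared with the same sign was 80, without knockdown replicate 1 it was 76 and without knockdown replicate 2 it was 95.

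Most of the largest changes of set 2 were also called in set 1. Of the 14 largest rises, 13 were called there with the same sign, from 0.91 for Slc6a15 and Negr1 to 2.41 for Fam19a1, and Cytip stood at 0.68 (adjusted p = 0.0894). Slit2 stood at 1.09 and Rprd1b at -0.67. Of the 14 largest falls, Galc (-0.98), Myzap (-1.15), Eif2s3y (-0.66), Rprd1b, Pi15 (-0.55) and Ankrd6 (-0.70) were called in set 1. The other 8 were not, among them Grpr at -0.27 ± 0.28 and Itgb3 at -0.28 ± 0.13. The test of the difference between sets did not pass for any of those 8, with adjusted p-values of 0.165 for Grpr to 0.994 for Hlf. For these 8 falls a difference between the sets is thus not shown. For some other falls of set 2 it was called, such as that of Ier5, at -0.25 against 0.03 (adjusted p = 0.0297), a call that held without scrambled replicate 2 or 4 and was lost without any other of the 8 libraries (0.0647 to 0.383).

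**Figure D4:**
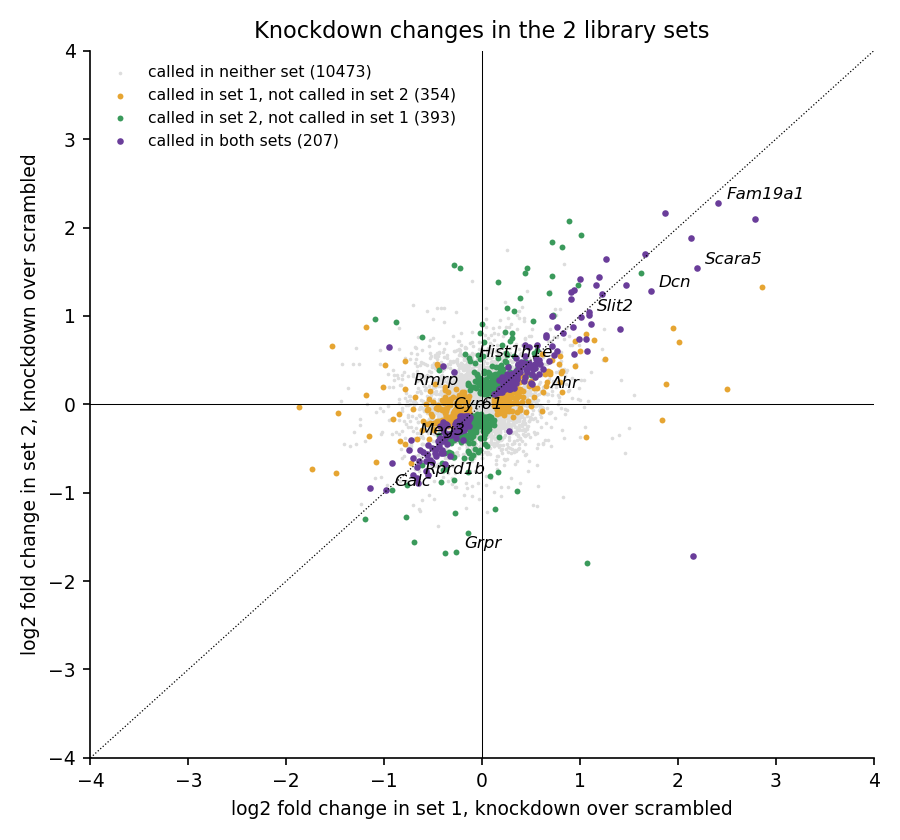
Knockdown change as log2 fold in set 2 (vertical axis) against set 1 (horizontal axis), one point per gene tested in both sets, with a dotted line of equal change. Genes called in both sets are purple and number 207, of which 202 share their sign; genes called in set 2 and not in set 1 are green and number 393.

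The difference between sets itself, tested over all 8 libraries, was called for 29 of 11723 genes (0.247%), 20 higher in set 2 (0.171%) and 9 lower (0.0768%). Without adjustment 1013 genes (8.64%) had a p under 0.05. The count was 5 with DESeq2, and 7 to 53 with 1 library left out: 53 without scrambled replicate 2, 7 without scrambled replicate 3, 10 without knockdown replicate 1, 10 without knockdown replicate 3 and 13 without knockdown replicate 4. Dcn rose in both sets and less in set 2, with a difference of -0.44 ± 0.09 (adjusted p = 0.0145), and Meg3 fell in both and less in set 2 (0.33 ± 0.08, adjusted p = 0.0342). Cyr61, a matricellular target of YAP, fell in set 1 (-0.38 ± 0.04) and stood at -0.10 ± 0.04 in set 2, which was not called. Ahr, the aryl hydrocarbon receptor, rose in set 1 (0.62 ± 0.09) and stood at 0.13 ± 0.06 in set 2. Its level in scrambled cells was also different, with 32.9 and 32.9 CPM in set 1 and 95.3 and 92.6 CPM in set 2. Dhx38, a splicing helicase, was called in opposite directions, at 0.28 ± 0.09 in set 1 and -0.30 ± 0.10 in set 2. The set 2 call of Dhx38 was lost without scrambled replicate 4 (0.415), knockdown replicate 3 (0.144) or knockdown replicate 4 (0.286).

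The difference was also called for 2 of 6 tested linker histone genes, Hist1h1e and Hist1h1c. Hist1h1e (chromosome 13, 23621777 to 23622558) rose in set 2 from 125 and 109 to 156 and 173 CPM (0.49 ± 0.05, adjusted p = 1.27e-17), whichever library was left out. In set 1 it stood at 317 and 353 CPM in scrambled and 300 and 314 CPM in knockdown cells, and the difference of 0.62 ± 0.08 was called (adjusted p = 0.000270). Hist1h1c (chromosome 13, 23738807 to 23739531) rose in set 2 from 23.3 and 25.9 to 34.3 and 29.6 CPM (0.37 ± 0.10, adjusted p = 0.00919). This call was lost without scrambled replicate 3 or knockdown replicate 3. In set 1 its log2 change was -0.29, and its difference between sets was 0.67 ± 0.13 (adjusted p = 0.00355). Both code for histone H1 proteins that bind the DNA between nucleosomes, and their copies are similar enough that reads may be shared among them. The difference was not called for Hist1h1b (0.39 ± 0.11, adjusted p = 0.0915), Hist1h1d, Hist1h1a or H1f0 (adjusted p = 0.802 to 0.991).

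The 250 bases before the RefSeq starts of these genes (GRCm38.p6, the assembly that mm10 names) are shown because both carry AAACACA and CCAAT at nearly the same distances. The exact letters TATAAA were found in that of Hist1h1e and not in that of Hist1h1c, which holds the unmarked letters tatatata shortly before its start. The promoter of Slit2 is shown beside them as that of a strong rise in both sets, and its window precedes a start that lies 1864 bases inside the annotated span of the gene. Capitals mark the motifs AAACACA (the H1 box), CCAAT and TATAAA, searched for on both strands, and none of the 3 motifs overlaps another. For marking, the window of Slit2 was searched for TATAAA only.
Hist1h1e, chr13:23622559-23622808, minus strand: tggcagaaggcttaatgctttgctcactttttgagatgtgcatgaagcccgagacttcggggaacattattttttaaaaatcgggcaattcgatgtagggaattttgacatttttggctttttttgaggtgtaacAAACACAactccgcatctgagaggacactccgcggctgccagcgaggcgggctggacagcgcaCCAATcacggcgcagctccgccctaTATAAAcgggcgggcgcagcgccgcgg
Hist1h1c, chr13:23738557-23738806, plus strand: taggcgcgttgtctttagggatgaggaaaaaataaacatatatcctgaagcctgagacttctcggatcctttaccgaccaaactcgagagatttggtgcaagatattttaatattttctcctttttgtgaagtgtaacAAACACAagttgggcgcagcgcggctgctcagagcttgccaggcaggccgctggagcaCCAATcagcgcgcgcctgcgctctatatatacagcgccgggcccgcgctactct
Slit2, chr5:47982905-47983154, plus strand: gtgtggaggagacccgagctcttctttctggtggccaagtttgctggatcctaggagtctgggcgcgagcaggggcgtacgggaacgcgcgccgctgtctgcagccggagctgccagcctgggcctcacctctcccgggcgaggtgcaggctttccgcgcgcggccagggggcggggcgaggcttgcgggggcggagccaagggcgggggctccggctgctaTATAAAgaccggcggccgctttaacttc
The H1 box begins 115 bases before the start of Hist1h1e and 112 before that of Hist1h1c, and CCAAT begins 52 and 54 bases before. The RefSeq start of Hist1h1c was not found in the GENCODE transcripts of the gene, so its distances hold for the RefSeq start. TATAAA begins 27 bases before the start of Hist1h1e and 28 before that of Slit2. Of 11938 promoters of this length from 9407 tested genes, 3.93% hold AAACACA, 36.2% CCAAT and 6.50% TATAAA. Among the 315 promoters of genes called higher the shares were 6.67%, 29.8% and 9.84%, and among the 331 of genes called lower 2.42%, 33.8% and 8.16%. A match of these letters is a description and not a site.

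The replication histones of set 2 as a group were looked at after these values had been seen, so what follows is a description. Of 39 tested genes of the histone clusters, Hist1h1e and Hist1h1c among them, 34 lay above 0 in set 2, with a median log2 change of 0.40. Of the 39 genes 5 were called higher and 0 lower, against 2.55% and 2.64% of all tested genes. In set 1, 15 of the 39 lay above 0, with a median of -0.05. Their summed level in set 2 was 334 and 301 CPM in scrambled and 395 and 407 CPM in knockdown cells. In set 1 it was 1043 and 1218 against 1131 and 1115 CPM. Without Hist1h1e and Hist1h1c, 32 of 37 genes lay above 0 in set 2 and 3 were called higher, and the sum was 183 and 166 against 205 and 209 CPM. Most of these messages lack a poly(A) tail, and their level differed more between the sets than between the groups. What the sets differed in is not given, and its part in this result was not tested. Without the histone genes, the 61 other tested genes of chromosome 13 at 20 to 40 Mb had a median of -0.04.

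**Figure D5:**
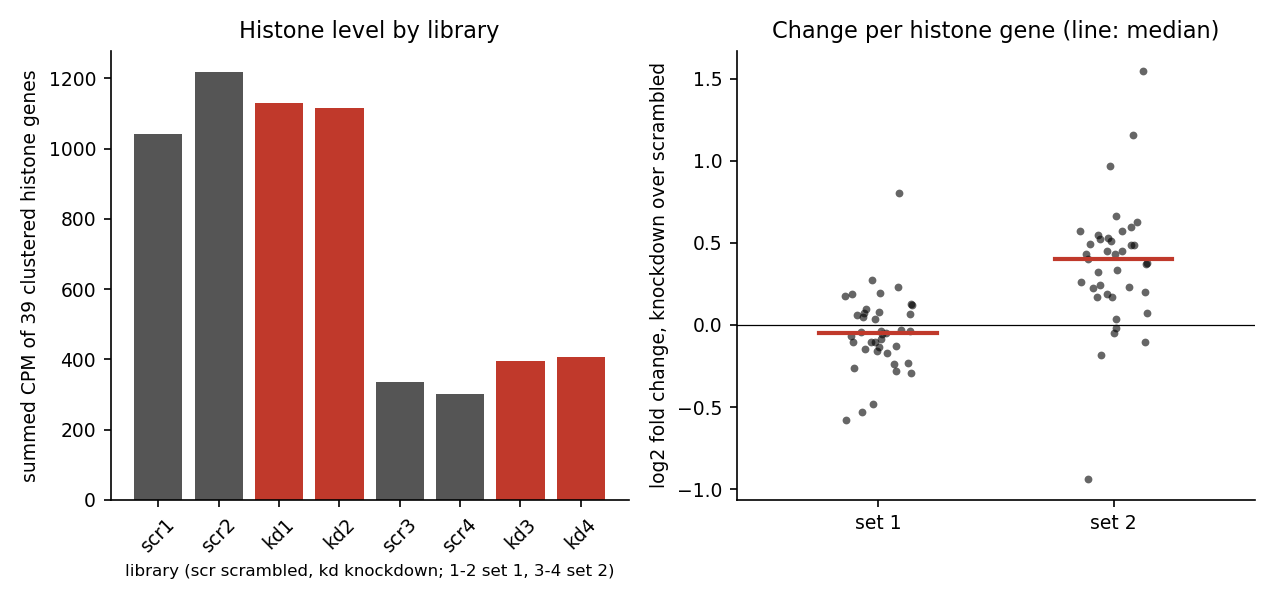
Summed CPM of the 39 tested genes of the histone clusters in each of the 8 libraries (left, bars from 0, scrambled grey and knockdown red) and log2 fold change of each gene in each set (right, points, with a line at the median). The sum lies between 1043 and 1218 CPM in set 1 and between 301 and 407 CPM in set 2, and the median change is -0.05 in set 1 and 0.40 in set 2.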

How the data were processed

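RNA-seq of total RNA was deposited as a table of whole-number counts per gene for each set, which the authors neither normalised nor filtered. Per the labels, cDNA was primed with random hexamers, the kit is not described as stranded, and paired reads of 75 bases were sequenced. Per the submitters' processing notes the build is mm10. For the aligner and counter the sources used here give no name. The deposited comparison of each set also holds a signal (the authors' mean of scaled counts), a log2 fold change by the authors and the authors' q-value, used for comparison only. Every column of samples was used. Of 23420 entries, 27 are gene names turned into dates, which were kept in totals and tests. RefSeq GRCm38.p6 gave the places of 23233 of 23393 gene names, and the promoter sequences.

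Genes whose counts averaged 10 or more in the libraries fitted were tested in edgeR 4.0.16 (R 4.3.3) by the robust quasi-likelihood F test on TMM-scaled counts, with Benjamini-Hochberg adjustment over all tested genes and a threshold of 0.05. Tests are two-sided. The SE is the size of the log2 change divided by the root of F, and CPM are TMM-scaled, except those of marker and histone sums, which are counts over the library total. The difference between sets is the interaction of set and group over 8 libraries. Alternatives were a replicate block, leaving out each library, DESeq2 1.42.0, a fit over 8 libraries, upper-quartile scaling, the size factors of DESeq2, no filter and a minimum mean of 50. The tests were tried on simulated data first.

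Named are Rprd1b, Rprd1a and Rprd2, the 14 largest called rises and falls averaging 50 or more counts and with groups that do not overlap, the 5 most abundant called genes per direction, up to 4 called genes per list with the smallest p (or 1 where none is called), and the 5 genes per direction with the smallest p for the difference. Numbered gene models are counted and not named, and some genes that meet the rule are not reported here. Uty, Syn1, Tubb3, Prl2c2, Fxyd5, Cd34, Mgp, Cd24a, Ncam1, Itga3, Itga6, Itgb5, Rtl1 and linker histone genes other than Hist1h1c and Hist1h1e were named after their values were seen. The members, lists and naming rule were chosen with earlier results of these data known.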

Additional observations from a re-analysis of the deposited data

Results flagged for a closer look

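In 11 of the genes named by rule the knockdown change differed between the sets by the test over 8 libraries, each value being the log2 change in set 2 minus that in set 1. More positive in set 2 were Rmrp, the RNA of a nucleolar ribonuclease, by 0.96, the linker histone genes Hist1h1c by 0.67 and Hist1h1e by 0.62, Tmsb10, an actin-sequestering peptide, by 0.34, Meg3 by 0.33 and Cyr61 by 0.29. More negative in set 2 were Dhx38 at -0.57, Ahr at -0.48, Dcn at -0.44, Fam168b at -0.28 and Ier5 at -0.27. The change of Rmrp in set 2 itself was 0.17 ± 0.11 and not called (edgeR adjusted p = 0.499), with 19.1 and 21.3 CPM in scrambled and 21.4 and 23.5 CPM in knockdown cells, while in set 1 it stood at -0.79 ± 0.11. Tmsb10 rose in set 2 from 182 and 168 to 209 and 222 CPM, and Fam168b fell there from 183 and 190 to 160 and 157 CPM. What the sets differed in was not tested.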

How the results depend on the processing

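For the knockdown in set 2, DESeq2 called 177 genes, 87 higher and 90 lower, against 611, 300 and 311 in edgeR. With 1 library left out, 273 to 355 were called, 129 to 191 higher and 141 to 192 lower. Set 1 gave 139 calls with DESeq2 against 563, and 113 to 571 with 1 of its libraries left out, the lowest without knockdown replicate 1 (113) and 2 (145). The 29 differences between sets became 50 with no filter, 5 with DESeq2 and 7 to 53 with 1 library left out. The 202 shared calls became 80 with DESeq2 and 76 to 178 with 1 of the 8 libraries left out, the lowest without knockdown replicates 1 (76) and 2 (95). Other filters, scalings and the fit over 8 libraries kept these counts within 1.5 times. Replicate numbers were not taken to pair libraries, since deviations from the group means of same-numbered libraries correlated at -0.0335 in set 2 and -0.000753 in set 1. The replicate block gave 509 calls in set 2, 655 in set 1 and 39 for the difference, and 506 of the 611 genes kept their call. Of 116 named genes called in set 2, 50 kept their call under every alternative and 64 with DESeq2. The change of Rprd1a, not called, ran from -0.10 to 0.14 with 1 library left out and turned in sign without scrambled replicate 3 (-0.10) and without knockdown replicate 4 (-0.03). The cause of these moves was not tested. With 2 libraries a group, the smallest change called among the 2945 genes with the lowest counts was 0.60, and smaller changes of such genes may have been missed.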

Other observations

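Called genes were more frequent among long genes. Of protein-coding genes in the shortest group of 5 by genomic span, 2249 genes up to 8.39 kb, 3.96% were called in set 2, and in the longest group, 2248 genes from 69.0 kb, 9.03%. The longest group held 93 higher and 110 lower genes, and the shortest 57 and 32. In set 1 the shares were 3.39% and 7.82%. The median span was 30.2 kb for genes called higher, 45.7 kb for genes called lower and 23.1 kb for all tested genes. Longer genes were not matched on counts, and counts also set what can be called.

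Shares of promoter motifs in the lists of called genes are given as a description with no test. The GC box GGGCGG was found in 59.0% of promoters of genes called higher, 59.2% of those of genes called lower and 58.8% of all, and the E-box CACGTG in 7.62%, 7.55% and 8.42%. The AP-1 motif TGANTCA was found in 7.94% of promoters of genes called higher, 5.14% of those of genes called lower and 4.28% of all. Both strands were searched, and genes with several starts count once per start.

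Short structured RNAs, such as small nucleolar RNAs and the RNA parts of ribonucleases, had a median change of 0.17 over 21 tested genes in set 2, with 15 above 0 and 0 called in edgeR. In set 1, 1 of 19 lay above 0 and the median was -0.31. Their summed level was 47.5 and 55.6 CPM in scrambled and 54.7 and 56.5 CPM in knockdown cells of set 2. The group was put together after values of this kind had been seen.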
